A study of Mus musculus with 2 samples.

Results

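Netrins are secreted guidance cues, and the 9 genes described here are 2 of their ligands, Ntn1 and Ntn4, together with their receptors Dcc, Neo1, Unc5a, Unc5b, Unc5c, Unc5d and Dscam. The genes were taken by symbol from the 32285 genes of the count matrices, and all 9 had a row. The set was chosen by family together with the whole-library ratios of Ntn1 and Dcc, which were known to be low, so every difference between the libraries is given as a description and without a test. Nuclei of mouse cerebellum were sequenced at postnatal day 1, with droplet-based counting of transcript ends. The control library came from littermates without Cre, whose genotype label reads Tox3f/f while the library name reads Tox3f/f or Tox3f/+. The other library carries the label conditional knockout (cKO) and the genotype Nestin-cre;Tox3f/f, in which Nestin-Cre recombines the floxed Tox3 allele in neural precursors and the cells they give rise to. Each library was a pool of 12 cerebella, so there was 1 sample per group and no replicate check, and the spread between animals cannot be told apart from the difference between genotypes. The labels name no agent for either group.

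Netrin binding to Dcc or to its relative neogenin (Neo1) generally attracts axons and migrating neurons, whereas Unc5 receptors, alone or in a complex with Dcc, turn the response into repulsion. Dscam is a homophilic adhesion molecule that can also bind netrin. In the neonatal cerebellum, granule neuron progenitors (GNPs) divide in the external granule layer, and the granule neurons they form, the source of the GN-like class, leave the cycle and migrate inwards. Unc5c is known to keep granule cells within the borders of the cerebellum. Dcc, best known from axons that cross the midline, is also made by migrating neurons.

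The control library held 4857 barcodes and 22325208 UMIs (unique molecular identifiers, each standing for 1 captured transcript), and the cKO library held 6946 barcodes and 33726533 UMIs. After filters, 4667 and 6555 nuclei remained. They formed 24 clusters, of which those with enough marker genes were grouped into 10 classes named with the ending "-like", and a fibroblast and mural-like cluster of 22 nuclei was too small to compare. The 10 classes held 3554 nuclei in control and 5667 in the cKO library, and 9 barcodes occurred in both libraries. Nuclei left unnamed for low depth made up 21.7% of control and 10.7% of the cKO library, and they count in whole-library values. GNP-like nuclei numbered 514 (11%) in control and 114 (1.74%) in the cKO library, and GN-like nuclei numbered 1522 and 1900. These 2 classes together are called the granule lineage, with 2036 and 2014 nuclei. Levels are given as UMIs of a gene per 1000000 UMIs of the class (CPM), with exact 95% Poisson intervals that cover counting error only, and ratios are the cKO library over control. Tox3, the deleted gene, stood at 104 CPM in control and 118 CPM in the cKO library, a ratio of 1.14 (1.08 to 1.2), and at 252 and 547 CPM in GNP-like nuclei. Tags from the 3' end can lie outside the deleted part of the gene, so these counts check nothing about the deletion, and "cKO library" means only the library with that label.

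RefSeq promoters (GRCm38.p6, 250 bases before to 50 after the start) were on hand for 6 of the 9 members, those of Neo1, Ntn4, Unc5a, Unc5b, Unc5c and Dscam. The promoters of Neo1, Unc5b and Unc5c are shown because these receptors had 3 different patterns in the granule lineage: a level that was close between libraries, one that was higher in GN-like nuclei of the cKO library, and one that was higher in its GNP-like nuclei. Each runs 5' to 3' on the gene's strand, with the GC box (GGGCGG, or CCGCCC for the other strand) in capitals. They lie at chr9:59036392-59036691 (minus), chr10:60831532-60831831 (minus) and chr3:141465314-141465613 (plus).
Neo1: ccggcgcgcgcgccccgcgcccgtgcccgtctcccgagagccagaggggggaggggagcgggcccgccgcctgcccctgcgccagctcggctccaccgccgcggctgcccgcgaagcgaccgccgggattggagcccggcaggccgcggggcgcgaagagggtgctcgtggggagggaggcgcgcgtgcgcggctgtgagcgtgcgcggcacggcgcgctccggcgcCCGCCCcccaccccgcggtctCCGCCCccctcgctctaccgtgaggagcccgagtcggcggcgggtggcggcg
Unc5b: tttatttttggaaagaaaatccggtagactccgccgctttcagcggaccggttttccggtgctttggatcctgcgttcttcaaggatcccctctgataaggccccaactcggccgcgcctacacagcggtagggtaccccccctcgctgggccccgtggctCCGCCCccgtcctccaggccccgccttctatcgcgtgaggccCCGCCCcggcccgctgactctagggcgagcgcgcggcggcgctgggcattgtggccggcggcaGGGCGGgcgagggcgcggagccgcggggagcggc
Unc5c: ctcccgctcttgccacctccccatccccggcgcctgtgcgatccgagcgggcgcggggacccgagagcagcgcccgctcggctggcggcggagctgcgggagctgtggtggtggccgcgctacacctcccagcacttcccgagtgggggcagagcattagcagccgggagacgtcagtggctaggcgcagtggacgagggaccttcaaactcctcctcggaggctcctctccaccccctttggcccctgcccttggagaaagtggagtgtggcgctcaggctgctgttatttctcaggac
The GC box was found at 2 places in the Neo1 promoter, 3 in Unc5b, 4 in Ntn4, 5 in Unc5a and none in Unc5c or Dscam, and 35.7% of all 32851 promoters of this length held it. The E-box CANNTG, a palindrome that also reads the same on the other strand, was in 72.3% of all promoters, and these letters were in none of the 6 windows. GC content was 82.7% for Neo1, 69.7% for Unc5b and 68.3% for Unc5c.

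The members span very different lengths in GRCm38 (GENCODE vM21), which bears on their UMI counts. Ntn1 (ENSMUSG00000020902) lies at chr11:68209364-68400823 on the minus strand, and Ntn4 (ENSMUSG00000020019) at chr10:93640681-93747207 on the plus strand. Dcc (ENSMUSG00000060534) is the longest at 1097.4 kb, at chr18:71253634-72351069 on the minus strand, and Neo1 (ENSMUSG00000032340) spans 161.8 kb at chr9:58874687-59036441 on the minus strand. Unc5a (ENSMUSG00000025876), at 56.6 kb, is the shortest and lies at chr13:54949411-55006018 on the plus strand. Unc5b (ENSMUSG00000020099) lies at chr10:60762593-60831581 on the minus strand, Unc5c (ENSMUSG00000059921) at chr3:141465216-141834924 on the plus strand, Unc5d (ENSMUSG00000063626) at chr8:28646717-29219636 on the minus strand and Dscam (ENSMUSG00000050272) at chr16:96590840-97170752 on the minus strand. Whether intronic reads were counted, and whether strand was used, is not stated in the sources used here, so UMIs of Unc5c cannot be told apart from those of the antisense genes Gm15688 and Gm15689 inside it if strand was ignored. Levels of different genes were set against one another per 100 kb of span. On that scale Dcc led in control GNP-like nuclei, at 1446 CPM per 100 kb, before Unc5c at 642, Neo1 at 443, Ntn1 at 280 and Ntn4 at 149. In control GN-like nuclei Unc5c led with 1479 CPM per 100 kb and Dcc had 265.

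Of the ligands, Ntn1, the gene of netrin-1, was chiefly a transcript of GNP-like nuclei in control. Its level there was 536 CPM (505 to 569), far above the next classes, GABAergic interneuron-like nuclei at 131 CPM (118 to 146) and oligodendrocyte lineage-like nuclei at 119 CPM (85.8 to 161), whose intervals overlapped. All other control classes were at 63.0 CPM or less. In the cKO library the order differed, with oligodendrocyte lineage-like nuclei highest at 164 CPM (139 to 191), interneuron-like nuclei at 94.7 CPM (86.4 to 103), astrocyte-like nuclei at 84.2 CPM (65.7 to 106) and GNP-like nuclei at 72.8 CPM (49.5 to 103). The GNP-like class gave 59.8% of all Ntn1 UMIs in control and 3.28% in the cKO library, where interneuron-like nuclei gave 51.3%.

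The Ntn1 level of GNP-like nuclei was 7.36-fold lower (5.16 to 10.9) in the cKO library, from 1098 UMIs in 514 nuclei to 31 UMIs in 114 nuclei. A Ntn1 UMI was seen in 78.4% (74.6 to 81.9) of control GNP-like nuclei and in 22.8% (15.5 to 31.6) of those of the cKO library. The median GNP-like nucleus held 2 Ntn1 UMIs in control and 0 in the cKO library, where no nucleus had more than 2. With every nucleus thinned to 1000 UMIs the shares were 37.7% and 7.02%. Microglia-like nuclei, which descend from another lineage and should lack these neural transcripts, had a Ntn1 UMI in 3.77% of nuclei in control (1.92% thinned) and in 0 of 152 nuclei in the cKO library, which allows a share of up to 1.97%. Their median depth was 2923 and 2541 UMIs, against 3715.5 and 3480.5 for GNP-like nuclei. Of the 10 Ntn1 UMIs in control microglia-like nuclei, 7 came from a single nucleus.

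In GN-like nuclei Ntn1 stood at 22.9 CPM in control and 6.30 CPM in the cKO library, a ratio of 0.274 (0.197 to 0.376). Control microglia-like nuclei had 57.9 CPM (27.8 to 106) on 10 UMIs, and 0 CPM (0 to 26.0) without the 5 nuclei richest in Dcc. The control GN-like level thus did not stand clear of this background. Over the whole granule lineage the values were 133 and 9.56 CPM, which is 13.9-fold lower (11.1 to 17.6). Fewer GNP-like nuclei and fewer Ntn1 UMIs within them both enter this value, and they are separated by cluster further on. Outside the granule lineage the ratio was 0.720 (0.625 to 0.831) in interneuron-like nuclei. It was 1.37 (0.974 to 1.98) in oligodendrocyte lineage-like nuclei and 1.34 (0.831 to 2.22) in astrocyte-like nuclei, both of which hold 1, and the log2 ratio in astrocyte-like nuclei, 0.42 as reported, was -0.67 when each nucleus was assigned by its own markers. Of 8 classes with at least 20 UMIs over both libraries, 5 had a Ntn1 interval below 1 and none above.

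Ntn4, which encodes a netrin related to the laminin beta chains, had its highest level in GNP-like nuclei of both libraries, at 159 CPM (142 to 177) in control and 244 CPM (199 to 296) in the cKO library. GN-like nuclei had 114 and 100 CPM. Purkinje cell-like nuclei were at 16 and 12.5 CPM. The ratio was 1.53 (1.22 to 1.92) in GNP-like nuclei and 0.876 (0.795 to 0.965) in GN-like nuclei. At the reported settings the 2 netrins therefore stood on opposite sides of 1 in GNP-like nuclei, where Ntn1 had a ratio of 0.136 (0.0918 to 0.194). When each nucleus was assigned by its own markers, the Ntn4 log2 ratio in GNP-like nuclei was 0.08 in place of 0.62. Over the whole library Ntn4 was nonetheless lower, at 77.1 and 48.2 CPM, a ratio of 0.626 (0.582 to 0.672).

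**Figure D1:**
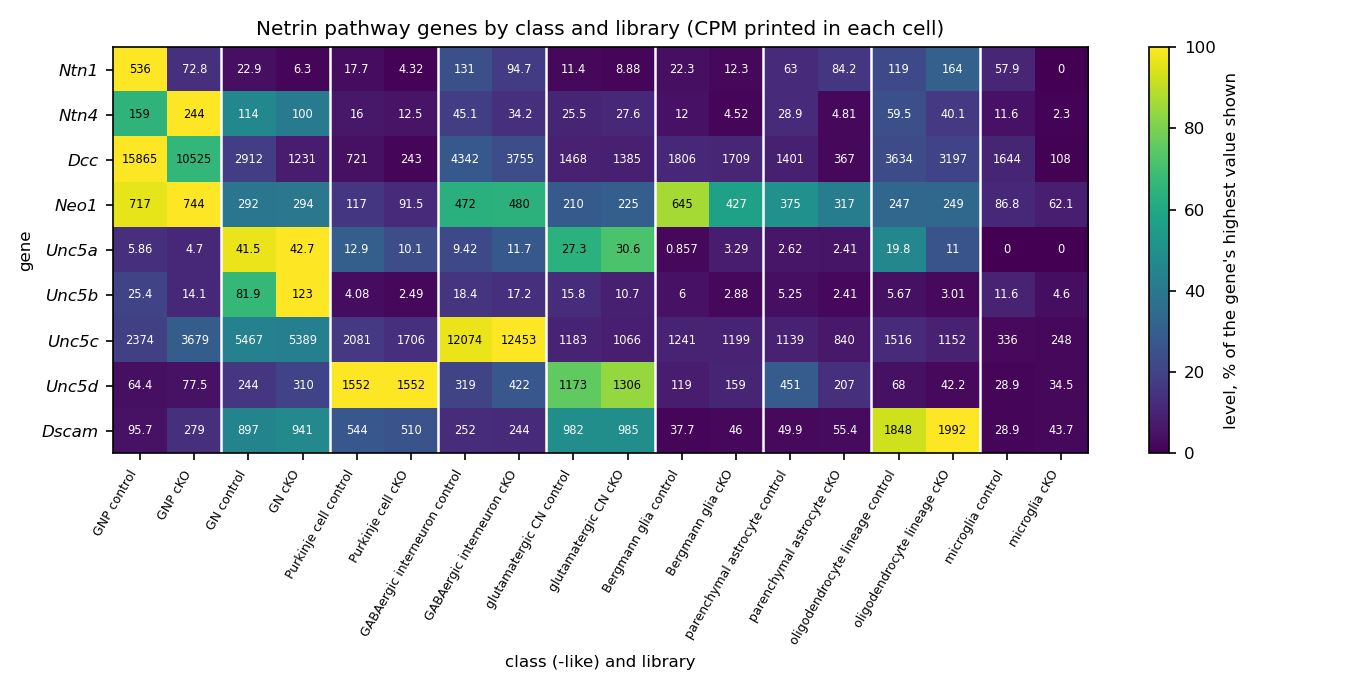
Level of each gene (rows) in each class and library (columns), for 9 of the 10 classes, with the CPM printed in the cell and the colour giving the level as a percentage of the highest value shown for that gene. Ntn1 and Dcc have their brightest cell in control GNP-like nuclei (536 and 15865 CPM), Unc5c in GABAergic interneuron-like nuclei, Unc5d in Purkinje cell-like nuclei and Dscam in oligodendrocyte lineage-like nuclei.

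Dcc, the receptor through which netrin-1 attracts axons, had its highest class level in GNP-like nuclei of both libraries. This level was 15865 CPM in control and 10525 CPM in the cKO library, with a median of 54 and 32 UMIs per nucleus. The lower quartile of control GNP-like nuclei was 32 Dcc UMIs and the highest nucleus held 435, against 20 and 139 in the cKO library. Nearly every GNP-like nucleus carried the transcript, with thinned shares of 99.2% and 98.2%. These shares were near their upper limit in both libraries and could hardly have differed. The ratio of the levels was 0.663 (0.643 to 0.684).

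In GN-like nuclei Dcc stood at 2912 CPM in control and 1231 CPM in the cKO library, a ratio of 0.423 (0.413 to 0.433). The median nucleus held 4 and 1 UMIs. Thinned to 1000 UMIs, 59.4% (56.9 to 61.9) and 35.4% (33.2 to 37.6) of nuclei had a Dcc UMI, against 23.1% (12.5 to 36.8) and 11.2% (6.65 to 17.3) of microglia-like nuclei, and unthinned the GN-like shares were 87.7% and 61.9% and the microglia-like shares 43.4% and 25%. The GN-like shares thus lay above the microglia-like background in both libraries. Over the granule lineage Dcc stood at 5692 and 1687 CPM, a ratio of 0.296 (0.291 to 0.302).

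Dcc was also detected outside the granule lineage. In control it stood at 4342 CPM in interneuron-like nuclei, 3634 CPM in oligodendrocyte lineage-like nuclei and 1806 CPM in Bergmann glia-like nuclei. The cKO library had 3755, 3197 and 1709 CPM in the same classes, with ratios of 0.865 (0.845 to 0.885), 0.880 (0.824 to 0.939) and 0.946 (0.898 to 0.998). Those of Bergmann glia-like and oligodendrocyte lineage-like nuclei depended on how the nuclei were classed. The log2 ratio in Bergmann glia-like nuclei, -0.08 as reported, was -0.78 with the members among the clustering features and 0.04 when thinned. The log2 ratio in oligodendrocyte lineage-like nuclei, -0.18 as reported, was -0.84 when each nucleus was assigned by its own markers, and a difference between classes was not tested. A small cluster of 113 nuclei that was left unnamed, with GABAergic interneuron markers (Pax2, Tfap2b) and leading genes of the mitotic spindle (Knl1, Kif11, Aspm), had the highest Dcc level of all clusters, at 18359 CPM in control and 18728 CPM in the cKO library. Its ratio of 1.02 (0.980 to 1.06) held 1. Interneuron-like cluster 9 had 2271 and 2332 CPM, a ratio of 1.03 (0.978 to 1.08), and cluster 11 of the glutamatergic cerebellar nuclei-like (CN-like) class had 959 and 1266 CPM, a ratio of 1.32 (1.23 to 1.42).

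All 10 classes nevertheless had a Dcc interval below 1 at the reported settings, and the lowest ratios belonged to classes with little Dcc. Purkinje cell-like nuclei had 721 and 243 CPM, a ratio of 0.337 (0.315 to 0.360). Astrocyte-like nuclei had 1401 and 367 CPM, a ratio of 0.262 (0.227 to 0.302), with 66.3% of the control UMIs in 5 of 82 nuclei, and their log2 ratio of -1.93 was between -0.72 and -0.81 under other settings of the clustering. Microglia-like nuclei had 1644 and 108 CPM, with 91.2% of the control UMIs in 5 nuclei, 156 of them in a single nucleus. Without the 5 nuclei richest in Dcc of each library, microglia-like nuclei had 177 CPM (114 to 261) and 80.9 CPM (56.0 to 113). Free RNA in the droplets can add to the counts of every class, and its level was not measured here. Dcc was lower in microglia-like and Purkinje cell-like nuclei of the cKO library as well as in GN-like nuclei. The GN-like ratio was therefore recomputed with either level taken off, and the part of free RNA in the difference was not tested. With the microglia-like level taken off, the log2 ratio of Dcc in GN-like nuclei went from -1.24 to -0.17, with those 5 nuclei left out first it was -1.25, and with the Purkinje cell-like level taken off it was -1.15. Among GN-like clusters the level left after the Purkinje cell-like level was taken off was 1090 and 207 CPM in cluster 4, 994 and 519 CPM in cluster 3 and 414 and 153 CPM in cluster 0. With the microglia-like level taken off instead the direction turned in all 3, at 167 and 342 CPM in cluster 4, 71.8 and 654 CPM in cluster 3 and 0 and 288 CPM in cluster 0. With the 5 nuclei left out of that level first, control was again higher, at 1635 and 369 CPM in cluster 4, 1539 and 682 CPM in cluster 3 and 959 and 315 CPM in cluster 0.

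Neo1, a Dcc relative that also binds repulsive guidance molecules, was close between libraries in GNP-like, GN-like and interneuron-like nuclei. GNP-like nuclei had 717 and 744 CPM (ratio 1.04, 0.917 to 1.17), GN-like nuclei 292 and 294 CPM (1.01, 0.95 to 1.07) and interneuron-like nuclei 472 and 480 CPM. Bergmann glia-like nuclei, which had 645 CPM in control, had 427 CPM in the cKO library, a ratio of 0.662 (0.602 to 0.728). Thinned shares of Bergmann glia-like nuclei with a Neo1 UMI were 43.5% and 33.6%, against 7.69% and 6.58% of microglia-like nuclei. Purkinje cell-like nuclei, at 117 and 91.5 CPM, were the only other class of 10 with an interval below 1. Over the granule lineage the ratio was 0.825 (0.785 to 0.867) although both of its classes had ratios near 1, and GNP-like nuclei, with more Neo1, made up less of it in the cKO library.

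Dscam showed the opposite order to Dcc in the granule lineage, low in GNP-like nuclei and higher in GN-like nuclei. In GN-like nuclei it stood at 897 and 941 CPM, a ratio of 1.05 (1.02 to 1.08). In GNP-like nuclei it stood at 95.7 CPM (82.7 to 110) in control and 279 CPM (231 to 334) in the cKO library, a ratio of 2.92 (2.31 to 3.69). The thinned share of GNP-like nuclei with a Dscam UMI was 8.95% in control and 26.3% in the cKO library, and that of microglia-like nuclei was 0% (0 to 6.85) and 2.63%. When each nucleus was assigned by its own markers, the log2 ratio in GNP-like nuclei was 0.61 in place of 1.55. The highest Dscam level was in oligodendrocyte lineage-like nuclei, at 1848 and 1992 CPM, followed by CN-like nuclei at 982 and 985 CPM.

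Unc5c, the Unc5 receptor best known in cerebellar development, was highest in interneuron-like nuclei, at 12074 and 12453 CPM. GN-like nuclei had 5467 and 5389 CPM, a ratio of 0.986 (0.973 to 0.999). In GNP-like nuclei the level was 2374 CPM in control and 3679 CPM in the cKO library, a ratio of 1.55 (1.46 to 1.64). The median GNP-like nucleus held 7 and 12 UMIs. When each nucleus was assigned by its own markers, the log2 ratio in GNP-like nuclei was 0.16 in place of 0.63. Interneuron-like nuclei stood above GN-like nuclei, and GN-like above GNP-like nuclei, in both libraries with no overlap of intervals. The thinned shares of GNP-like nuclei with an Unc5c UMI were 74.1% and 89.5%, against 26.9% and 21.1% of microglia-like nuclei. Over the whole library the ratio was 0.971 (0.963 to 0.979).

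Unc5d had a separate pattern. Purkinje cell-like nuclei had 1552 CPM in each library (ratio 1.00, 0.965 to 1.04), and CN-like nuclei had 1173 and 1306 CPM. GN-like nuclei had 244 and 310 CPM, a ratio of 1.27 (1.2 to 1.35), and interneuron-like nuclei 319 and 422 CPM, a ratio of 1.33 (1.22 to 1.44). GNP-like nuclei were low, at 64.4 and 77.5 CPM. Astrocyte-like nuclei were the only class with an interval below 1, at 451 and 207 CPM (0.459, 0.369 to 0.570), and 62.2% of the control UMIs there came from 5 nuclei. Over the whole library Unc5d stood at 531 and 690 CPM, a ratio of 1.30 (1.27 to 1.33).

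Unc5b, a receptor better known from blood vessels, was almost confined to the granule lineage among the named classes, which gave 83.1% of its UMIs in control and 84.2% in the cKO library. GN-like nuclei had 81.9 CPM (75.5 to 88.6) and 123 CPM (115 to 131), a ratio of 1.5 (1.36 to 1.66), and the thinned share with a UMI was 6.34% and 11.1%. GNP-like nuclei had 25.4 CPM in control and 14.1 CPM on 6 UMIs in the cKO library, and their ratio of 0.555 (0.195 to 1.29) held 1. Unc5a, the member with the shortest span, had 501 and 689 UMIs per library. GN-like nuclei had 41.5 and 42.7 CPM and CN-like nuclei 27.3 and 30.6 CPM, and none of its 5 comparable classes had an interval apart from 1.

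The 6 clusters of the granule lineage gave the order of the members along maturation more finely. Cluster 14 held dividing GNP-like nuclei (Top2a, Mki67), cluster 17 GNP-like nuclei with little expression of dividing markers (Gli2, Sfrp1), cluster 8 GN-like nuclei high in the axonal adhesion gene Cntn2, and clusters 4, 3 and 0 GN-like nuclei led by Cadps2 and Reln, by Mylk and Otx2os1, and by Svep1. Dcc was 14458 and 9116 CPM in cluster 14, 17936 and 14401 CPM in cluster 17 and 14971 and 9313 CPM in cluster 8. It then stood at 1811 and 450 CPM in cluster 4, 1716 and 762 CPM in cluster 3 and 1136 and 396 CPM in cluster 0. The step from cluster 8 to cluster 4, between the Cntn2-high nuclei and the next ones, was present in both libraries. The ratio was lower in the 3 clusters past that step, at 0.249 (0.228 to 0.271), 0.444 (0.417 to 0.473) and 0.348 (0.329 to 0.369), than in clusters 14, 17 and 8, at 0.631 (0.606 to 0.656), 0.803 (0.762 to 0.845) and 0.622 (0.603 to 0.641).

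Ntn1 ended earlier along this order than Dcc. It stood at 474 and 48.0 CPM in cluster 14, at 627 and 141 CPM in cluster 17 and at 122 and 23.3 CPM in cluster 8, with ratios of 0.101 (0.0564 to 0.169), 0.225 (0.127 to 0.368) and 0.192 (0.106 to 0.327). Clusters 4, 3 and 0 were at 13.2 CPM or less in both libraries. Ntn4, by contrast, peaked in cluster 8 at 275 and 330 CPM, remained at 209 and 181 CPM in cluster 4 and was at 51.4 and 47.5 CPM in cluster 0. No Ntn4 ratio of a GN-like cluster had an interval apart from 1.

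Unc5c was higher in each of the 4 GN-like clusters than in clusters 14 and 17, in both libraries. It stood at 2043 and 3779 CPM in cluster 17, 2600 and 3643 CPM in cluster 14, 5447 and 6819 CPM in cluster 8, 6088 and 6537 CPM in cluster 4, 8318 and 6211 CPM in cluster 3 and 3881 and 4388 CPM in cluster 0. The UMIs of Unc5c per Dcc UMI, which are not scaled for the spans, were compared between clusters and libraries. There were 0.114 Unc5c UMIs per Dcc UMI in control cluster 17, 0.180 in cluster 14, 0.364 in cluster 8 and 3.36 in cluster 4. In the cKO library the same clusters had 0.262, 0.40, 0.732 and 14.5 Unc5c UMIs per Dcc UMI, each higher than in control with intervals apart. Clusters 3 and 0 had 4.85 and 3.42 in control and 8.15 and 11.1 in the cKO library. These counts are not corrected for free RNA. With the microglia-like level taken off, cluster 4 kept 5752 and 6289 CPM of Unc5c beside 167 and 342 CPM of Dcc. Cluster 3 kept 7982 and 5963 CPM beside 71.8 and 654 CPM, so control had more Unc5c per Dcc in both clusters. With the 5 nuclei left out of that level first, the cKO library again had more in both.

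Unc5b, Unc5a and Dscam were higher in the clusters past the Dcc step. Unc5b stood at 25.6 and 21.9 CPM in cluster 8, 103 and 160 CPM in cluster 4 and 73.7 and 129 CPM in cluster 0, with ratios of 1.54 (1.25 to 1.91) and 1.75 (1.51 to 2.04) in the last 2, while in cluster 3 it was 109 and 118 CPM, and its ratio of 1.09 (0.890 to 1.33) held 1. Unc5a stood at 1.22 and 4.38 CPM in cluster 8 and 54.0 and 54.9 CPM in cluster 0. Dscam stood at 59.1 and 238 CPM in cluster 17, a ratio of 4.02 (2.42 to 6.56), and at 1299 and 1178 CPM in cluster 0. Markers of later stages moved with these GNP-like values. In cluster 17 the fixed early postmitotic genes summed to 364 CPM in control and 687 CPM in the cKO library and the later genes to 767 and 1101 CPM, and in cluster 14 the sums were 369 and 557 CPM and 679 and 1079 CPM. Over the whole GNP-like class the 10 GN markers summed to 3611 and 4756 CPM, and the 12 GNP markers to 3400 and 3529 CPM. Marker lists of other classes moved in GNP-like nuclei as well. The 7 astrocyte markers summed to 301 and 566 CPM there and the 8 Bergmann glia markers to 532 and 655 CPM, while the 8 Purkinje cell markers summed to 1394 and 1026 CPM. Ntn1 was lower in the GN-like clusters than in clusters 14 and 17 in both libraries, so such a move bears on its GNP-like ratio as well. The part of these markers in the Ntn1, Dcc, Unc5c, Dscam and Ntn4 differences of GNP-like nuclei was not tested.

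**Figure D2:**
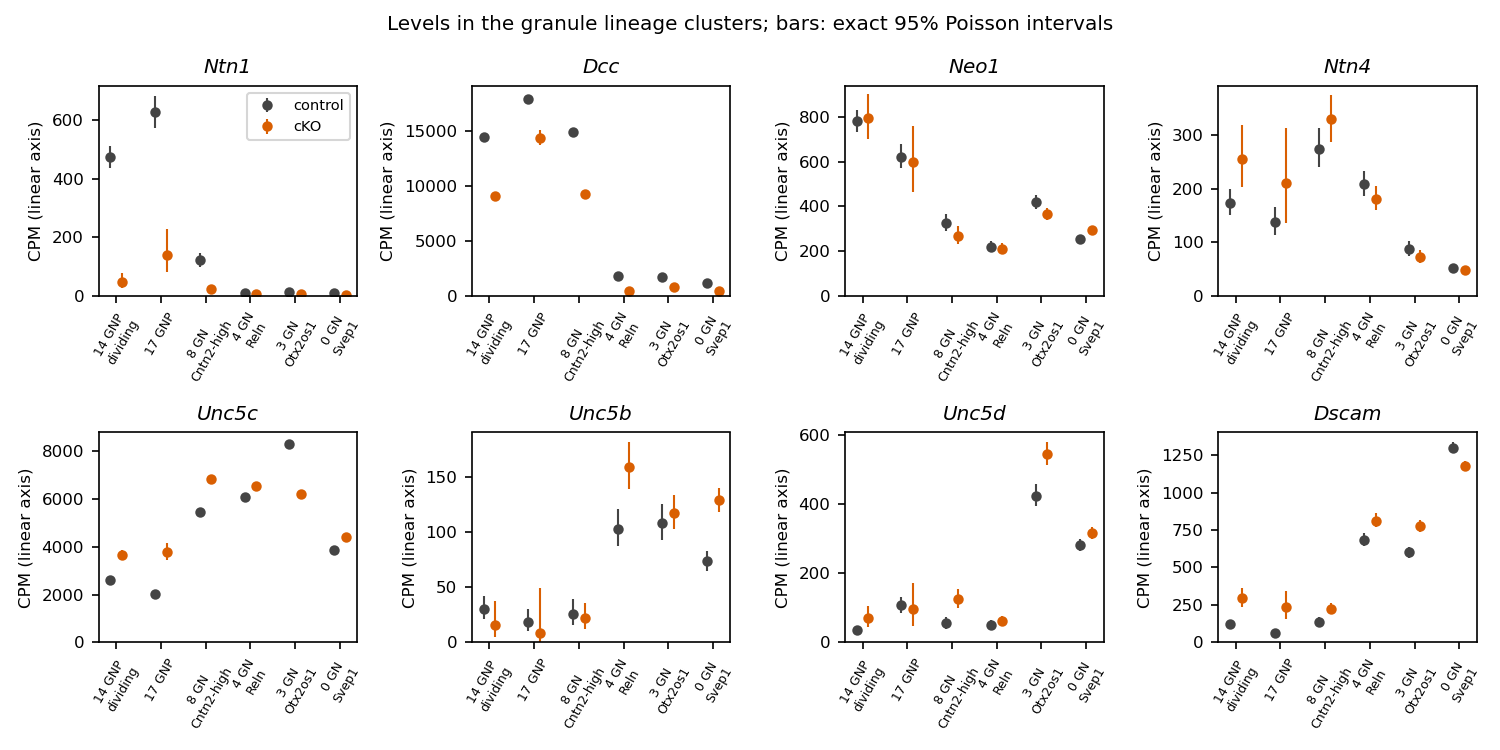
Level in CPM (linear axes, exact 95% Poisson intervals) in the 6 granule lineage clusters, ordered from dividing GNP-like to later GN-like nuclei, with control in grey and the cKO library in orange. Ntn1 and Dcc of the cKO library lie below control in clusters 14, 17 and 8, Neo1 values lie close together there, and Dscam is lowest in clusters 14, 17 and 8 of both libraries.

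The members past 1.5-fold were counted beside all genes. Over the whole library 3 of 9 members were at least 1.5-fold lower in the cKO library (Ntn1, Dcc and Ntn4) and none was as much higher, where 7.74% of the 20214 genes with at least 20 UMIs were as much lower and 7.07% as much higher. The median log2 ratio of the members was -0.10, and that of all these genes -0.02. In the granule lineage 2 of 9 were lower (Ntn1 and Dcc) and 1 was higher (Unc5b), beside 13.3% and 5.61% of 16340 genes, with a median of 0.14 for the members and -0.09 for all genes. In GNP-like nuclei 8 members had enough UMIs, of which 3 were lower (Ntn1, Dcc and Unc5b, whose interval holds 1) and 3 higher (Ntn4, Unc5c and Dscam), where 21.7% of 11155 genes were as much lower and 11.5% as much higher. In GN-like nuclei 2 of 9 were lower (Ntn1 and Dcc) and 1 was higher (Unc5b), beside 6.93% and 5.17% of 15699 genes. Since Ntn1 and Dcc were picked with their ratios known, nothing is read from these counts.

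**Figure D3:**
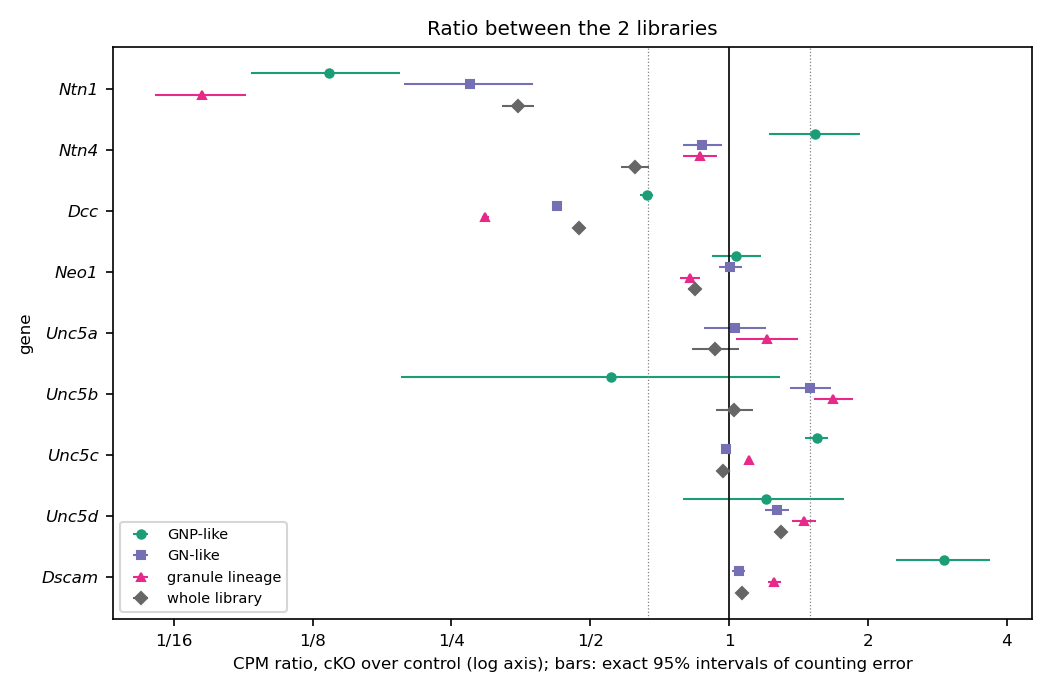
CPM ratio of the cKO library over control on a log axis for each gene in GNP-like nuclei, GN-like nuclei, the granule lineage and the whole library, with exact 95% intervals of counting error, where at least 20 UMIs were present. Dotted lines mark 1.5-fold. Ntn1 and Dcc lie left of 1 in all 4 groups, while Dscam and Unc5c in GNP-like nuclei lie right of the upper dotted line at 2.92 and 1.55.

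Since GNP-like nuclei were a smaller part of the cKO library, each difference was divided into what goes with the shares of UMIs that each class contributed and what goes with levels inside the classes. For Ntn1 over the whole library, the log2 ratio of -1.52 was the sum of -0.80 from shares and -0.72 from levels, and for Dcc -1.08 was the sum of -0.55 and -0.53. For Ntn4, -0.68 was the sum of -0.45 and -0.23. For Unc5b the 2 parts ran in opposite directions, -0.34 from shares and 0.38 from levels, which left a log2 ratio of 0.04.

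Within the granule lineage, divided over its 6 clusters, the Ntn1 log2 ratio of -3.80 was the sum of -1.59 from shares and -2.21 from levels, and the Dcc log2 ratio of -1.75 the sum of -0.85 and -0.91. Shares alone would give Dcc a ratio of 0.556 and Ntn1 a ratio of 0.333. For Neo1, Ntn4, Unc5a, Unc5c and Dscam the part from levels was between -0.03 and 0.03, which is a sum over clusters and can hide moves in both directions. Unc5c had a ratio of 0.747 (0.729 to 0.765) in cluster 3 and 1.25 (1.2 to 1.30) in cluster 8, Dscam 0.907 (0.871 to 0.944) in cluster 0 and 1.29 (1.19 to 1.40) in cluster 3, and Neo1 1.16 (1.06 to 1.27) in cluster 0 and 0.870 (0.782 to 0.967) in cluster 3. For Unc5b the levels gave 0.55 and the shares 0.20, and for Unc5d 0.28 and 0.26. Fewer nuclei of a type and less RNA per nucleus cannot be told apart in a whole-library sum, and this division separates them only as finely as the clusters do.

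**Figure D4:**
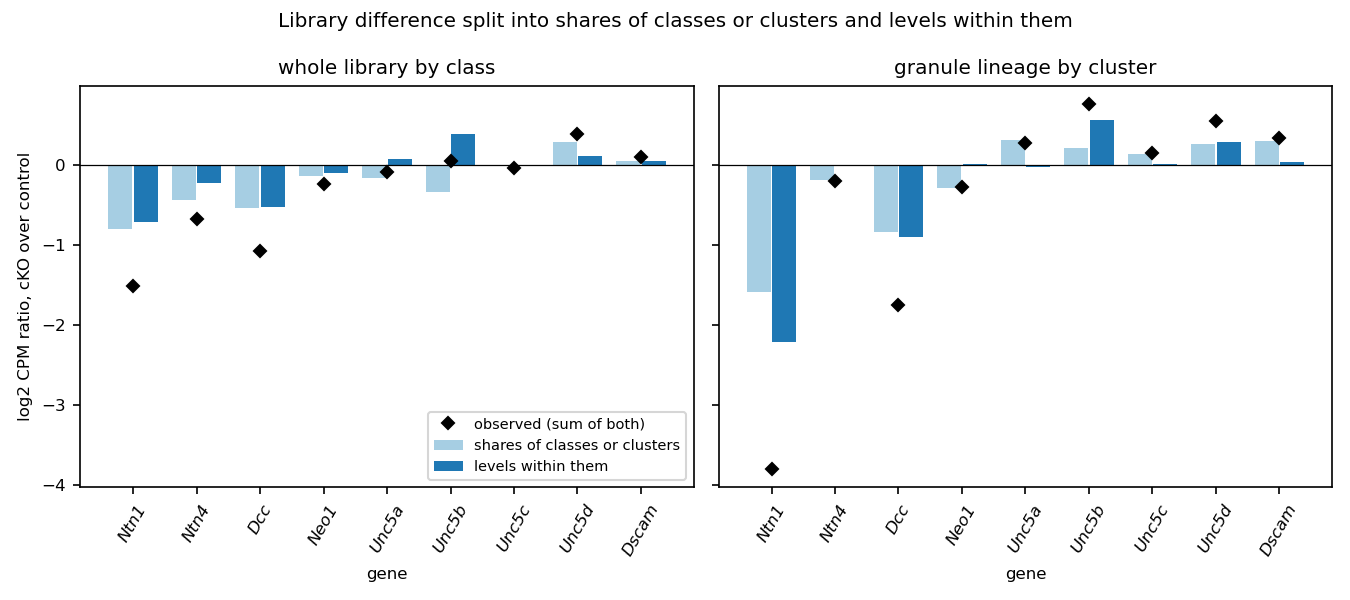
Log2 CPM ratio of the cKO library over control (diamonds) divided into the part from the shares of classes or clusters (light bars) and the part from levels within them (dark bars), for the whole library by class and the granule lineage by cluster. For Ntn1 and Dcc both bars lie below 0 in both panels, and for Neo1, Unc5c and Dscam in the granule lineage the dark bar, a sum over clusters, is near 0.

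Other genes of the pathway were counted from 5 lists of 56 genes. Over the whole library 55 had at least 20 UMIs, and 2 of them were at least 1.5-fold lower in the cKO library and none as much higher, beside the 7.74% and 7.07% of all genes given above. These were Draxin, a secreted netrin antagonist that binds Dcc, at 93.0 and 50.3 CPM (ratio 0.541, 0.506 to 0.579), and Boc, a hedgehog co-receptor, at 156 and 93.4 CPM (0.598, 0.568 to 0.629). Boc is also a marker of the GNP-like class. The median log2 ratio of the 55 genes was -0.04.

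In the granule lineage 10 of 53 genes were lower and 1 higher, beside 13.3% and 5.61% of all genes, with a median log2 ratio of -0.03 against -0.09 for all genes. Sums of the pathway genes were not divided by class or cluster. GNP-like nuclei made up less of the lineage in the cKO library, and the part of their share in these ratios was not tested. Of 9 genes listed as other ligands, which include the Robo ligand Slit2, 5 were lower, with a median of -0.74 in the list. They were Gpc3, a glypican that binds Unc5 receptors, at 22 and 6.45 CPM (0.293, 0.214 to 0.395), Draxin at 137 and 69.1 CPM (0.505, 0.458 to 0.557), Slit2, the repellent ligand of Robo receptors, at 72.4 and 36.7 CPM (0.507, 0.443 to 0.580), the repulsive guidance molecule Rgmb, which binds Neo1, with a ratio of 0.586, and the Unc5 ligand Flrt2, with a ratio of 0.598. Over the whole library Gpc3, Slit2 and Flrt2 had ratios of 1.14, 1.18 and 1.03. Of 5 co-receptors and relatives, 2 were lower, Boc at 220 and 92.2 CPM (0.419, 0.386 to 0.455) and Robo1 with a ratio of 0.626, and Cdon, a further hedgehog co-receptor, was higher at 24.1 and 49.7 CPM (2.06, 1.76 to 2.43).

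Of 23 intracellular partners only Dock1, which activates Rac1 downstream of Dcc, passed 1.5-fold, at 87.6 and 36.0 CPM (0.412, 0.360 to 0.469), and the list had a median of 0.02. Among the kinases of the list Fyn had a ratio of 1.03 (0.968 to 1.10), Ptk2, the focal adhesion kinase, 0.799 (0.752 to 0.848) and Pak1 1.31 (1.23 to 1.39), and the exchange factor Trio had 0.991 (0.944 to 1.04). Of 10 partners of the dependence receptors, which signal cell death when no ligand is bound, Casp9 (0.562, 0.386 to 0.806) and Dapk2 were lower, the latter on 14 and 6 UMIs with an interval from 0.148 to 1.30. None of 6 other netrins and netrin-G genes passed 1.5-fold.

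The genes most like 4 of the members were found by Pearson correlation of log2(CPM + 5) over 20 points, the 10 classes in each library, among 13640 genes. The points share libraries and differ in depth, and the values describe these libraries only. Dcc was most like Ckap4 (0.864), Slc7a6 (0.844) and Ccnd2 (0.841), the last of which encodes a cyclin of the G1 phase. Ntn1 was most like Ddx46 (0.804), Dnah11 (0.797) and Tpst1 (0.791). Unc5c was most like Gm15689 (0.986), the antisense gene at chr3:141662889-141682900 within Unc5c, followed by Gm47889 (0.926) and Tmem151b (0.914), and the value for Gm15689 cannot be told apart from shared reads. Unc5d was most like Golga7b (0.939), Ablim1 (0.902), which links actin to guidance receptors, and 4930547E14Rik (0.892). Among the members themselves, Dcc was closest to Neo1 (0.760) and Ntn1 (0.730) and went against Unc5d (-0.28).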

How the data were processed

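Single-nucleus RNA-seq libraries (10x Genomics 3' v3.1) were made from pooled cerebella, 1 library per group. The deposited values are raw UMI counts per gene and nucleus, which the authors made with Cell Ranger 7.0.1 (after bcl2fastq) on mm10, per the submitters' processing notes. No read depth beyond the UMIs was used. Nuclei with over 25% mitochondrial UMIs were removed (1 and 5), and the Scrublet scores in the top 0.8% per 1000 barcodes were removed as doublets (189 control nuclei and 386 of the cKO library; scanpy 1.11.5). The study's correction for free RNA needs droplets not used here, so counts are uncorrected.

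Classes were rebuilt in Seurat 5.3.0 (R 4.3.3) with 3000 variable features per library, integration by canonical correlation over 30 dimensions and clustering on 20 dimensions at resolution 0.8, with the 9 members left out of the features. A cluster was named when at least 3 markers of a fixed list were found in 10% of nuclei and stood 2-fold over the median cluster. The naming rule was adjusted after the clusters had been seen. The values of 1 of the 10 classes are not reported here. A gate on each nucleus's own markers gave the same class to 71.6% of 9243 nuclei in named clusters, of which 22 formed a fibroblast and mural-like cluster left out of the classes. The members and lists were chosen with earlier results of these data known.

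UMIs were summed per class and library. With 1 library per group no test was made, and ratios carry exact conditional binomial 95% intervals, shares Clopper-Pearson intervals and sums Poisson intervals, all of counting error only. A count of 0 allows up to 3 counts. Genes were compared from 20 UMIs upwards, summed over the libraries, and 1.5-fold was the size rule. Shares were also computed after thinning nuclei to 1000 UMIs. Named genes were the 9 members, the 3 largest changes per direction and the counted genes of the pathway lists, and the 3 genes most like Ntn1, Dcc, Unc5c and Unc5d with at least 200 UMIs. Other pathway genes were named after their values were seen. The part of a difference from shares was computed by giving the cKO library the control level of every class. Alternatives covered clustering resolution (0.4 and 1.2), integration, clustering features, the gate, doublets, a minimum of 1000 genes and size factors. They also covered totals without mitochondrial and the 50 highest genes (2 of them members) and thinning. Chosen after the data were seen were 3 ways of taking off a microglia-like or Purkinje cell-like level as a stand-in for free RNA. Python 3.11.15, numpy 2.4.6, scipy 1.17.1 and pandas 2.3.3 were used, and the ratio script was tested on simulated counts.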

Additional observations from a re-analysis of the deposited data

Results flagged for a closer look

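For 4 members the library ratio lay below 1 with its whole counting interval in at least 1 class and above 1 in at least 1 other class. These differences between classes were not tested, since each group was 1 library. The share of all genes that meet the same rule was not computed, so nothing is read from the count of members. For Ntn4 the ratio was 0.377 in Bergmann glia-like nuclei, on 14 and 11 UMIs, and 1.53 in GNP-like nuclei, a quotient of 4.07. For Dscam it was 0.938 in Purkinje cell-like nuclei and 2.92 in GNP-like nuclei, a quotient of 3.12. For Unc5d it was 0.459 in astrocyte-like nuclei and 1.34 in Bergmann glia-like nuclei, a quotient of 2.91. The Unc5d log2 ratio in Bergmann glia-like nuclei, 0.42 as reported, was -0.09 when libraries were merged without integration. Of the control Unc5d UMIs in that class, 37.4% came from 5 nuclei. For Unc5c it was 0.738 in astrocyte-like nuclei and 1.55 in GNP-like nuclei, a quotient of 2.10. In 3 of the 4 the highest ratio belonged to the GNP-like class, which held 114 nuclei in the cKO library. When each nucleus was assigned by its own markers, the GNP-like log2 ratios were 0.08 for Ntn4, 0.16 for Unc5c and 0.61 for Dscam. As reported they were 0.62, 0.63 and 1.55.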

How the results depend on the processing

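No paired analysis was possible because each group is 1 library, and for the same reason no library could be left out. Of 997 recomputed values 847 moved by less than their counting interval, 146 moved by more, and 4 that were past 1.5-fold changed sign. The counts of 3 members lower over the whole library and 2 in the granule lineage were the same under every alternative run for them. The Ntn1 log2 ratio of GNP-like nuclei stayed between -2.94 and -2.71. For Dcc in GN-like nuclei (-1.24) the log2 ratio was -1.14 when libraries were merged without integration, -1.04 under the gate on each nucleus's markers, -1.20 when thinned, -0.17 with the microglia-like level taken off and -1.15 with the Purkinje cell-like level taken off. For Dcc in the granule lineage (-1.75) it was -1.46 under the gate, -1.68 with size factors, -1.68 when thinned, -1.36 with the microglia-like level taken off and -1.78 with the Purkinje cell-like level taken off. For Ntn1 in the granule lineage (-3.80) it was -2.98 and -4.46 with those 2 levels taken off. The microglia-like level of Dcc rests on 5 control nuclei, and the cause of the other moves was not tested. Those 4 changed sign under the gate, to 0.070 for Unc5b in Purkinje cell-like, 0.15 for Ntn1 in Bergmann glia-like, 0.57 for Unc5d in oligodendrocyte lineage-like and -0.21 for Dscam in microglia-like nuclei. The Dcc log2 ratio of astrocyte-like nuclei, -1.93 as reported, was -0.72 to -0.81 under other resolutions, without integration or with the members among the clustering features. Over all alternatives run for it, the Dcc log2 ratio was -0.78 to 0.04 in Bergmann glia-like (-0.08), -0.84 to -0.05 in oligodendrocyte lineage-like (-0.18), -0.57 to 0.12 in CN-like (-0.08) and -0.26 to -0.10 in interneuron-like nuclei (-0.21). With the Purkinje cell-like level taken off, Unc5c in GNP-like nuclei went from 0.63 to 2.75 and Dscam in the granule lineage from 0.33 to 1.14. That level can hold more than free RNA. In control it was 2081 CPM for Unc5c and 544 CPM for Dscam, against 336 and 28.9 CPM in microglia-like nuclei. Taking it off left 0 CPM of Unc5c in control cluster 17, so nothing is read from these 2 rises. Under the gate Unc5c in GNP-like nuclei was 0.16. Size factors shifted all log2 ratios of a class by -0.08 to 0.06. The 31 Ntn1 UMIs in GNP-like nuclei of the cKO library limit that level to its interval, and the interval of Unc5b in interneuron-like nuclei, on 47 and 88 UMIs, ran from 0.648 to 1.36.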

Other observations

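Dscam was also high in an unnamed cluster of 152 nuclei led by Zfhx3, Zfhx4 and Dchs2, at 1402 CPM in control and 1532 CPM in the cKO library, a level second to that of oligodendrocyte lineage-like nuclei among classes. Dcc stood there at 1614 and 1380 CPM. The 2 clusters of the CN-like class differed in the members they carried. Cluster 20, led by Tfap2d, Lhx9 and Lhx2, had 4789 and 2450 CPM of Dcc and 318 and 508 CPM of Unc5c, with 57.4% of its control Dcc UMIs in 5 of 34 nuclei, whereas cluster 11, led by Meis2 and Pax5, had 959 and 1266 CPM of Dcc and 1315 and 1128 CPM of Unc5c.

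Among the interneuron-like clusters, cluster 5, with Slc6a5 and Pax2, had the most Ntn1, at 202 and 181 CPM (ratio 0.895, 0.740 to 1.08), together with 9027 and 7244 CPM of Dcc. Cluster 12, with Nxph1 and Kit, had 199 and 119 CPM of Ntn1 (0.598, 0.468 to 0.764), and cluster 9, with the most UMIs per nucleus of the 3, had 37.0 and 10.7 CPM (0.291, 0.166 to 0.497) on 40 and 23 UMIs. Unc5d was highest in cluster 9, at 599 and 762 CPM.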
